A study of Rattus norvegicus with 10 samples.

Results

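Fos, Junb, Fosl2, Egr1, Egr3, Egr4, Arc, Nr4a1, Klf10 and Nptx2 are genes whose transcripts neurons make soon after they are stimulated. They were examined in rat brain RNA as every probe set that the array annotation gives to one of these 10 symbols alone. That rule found 10 of 4736 genes with a probe set of their own and 22 of the 8740 non-control probe sets, of which 21 were bright enough to be among the 5244 tested. Egr3 and Arc had 1 probe set each, and the other 8 genes had several. All 10 symbols stood unchanged in the current rat gene table.

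The tissue came from cocaine-treated rats and from saline-treated control rats, with 1 array per region and treatment. The regions were the amygdala (AMY), caudate putamen (CPU), nucleus accumbens (NAc), prefrontal cortex (PFC) and ventral tegmental area (VTA). Cocaine blocks the reuptake of dopamine, the VTA holds dopamine neurons, and the remaining 4 regions receive dopamine axons. The sources used here do not give the strain, age, dose, route, duration or timing, nor whether animals were pooled.

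Immediate early genes are switched on within minutes of synaptic input, without new protein synthesis, by kinases that act on transcription factors already bound at their promoters. Their RNAs are short-lived, so a level reports recent activity and falls back soon after it. Fos, Junb and Fosl2 encode subunits of the AP-1 transcription factor, Egr1, Egr3 and Egr4 zinc finger factors of 1 family, Nr4a1 an orphan nuclear receptor and Klf10 a Krüppel-like factor. Arc and Nptx2 act at the synapse: Arc promotes removal of AMPA receptors from the membrane, and Nptx2 is a secreted pentraxin that gathers them.

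The promoters of 3 of these genes are shown because a probe set of each was lower in the VTA than in the other regions, as described further on. Each is the 250 bases before the RefSeq start of the gene in build GRCr8, 5′ to 3′ along the gene. Capitals mark matches on either strand to TGACG, the core of the cyclic AMP response element, to the CArG box, which serum response factor binds, and to the Egr site GCGGGGGCG.
Egr1 promoter, chr18:26736828-26737077, plus strand: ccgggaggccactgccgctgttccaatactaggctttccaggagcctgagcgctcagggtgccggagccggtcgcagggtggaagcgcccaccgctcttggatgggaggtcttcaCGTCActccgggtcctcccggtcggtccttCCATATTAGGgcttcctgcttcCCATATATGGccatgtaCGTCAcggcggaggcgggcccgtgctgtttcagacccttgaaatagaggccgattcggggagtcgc
Junb promoter, chr19:40080876-40081125, plus strand: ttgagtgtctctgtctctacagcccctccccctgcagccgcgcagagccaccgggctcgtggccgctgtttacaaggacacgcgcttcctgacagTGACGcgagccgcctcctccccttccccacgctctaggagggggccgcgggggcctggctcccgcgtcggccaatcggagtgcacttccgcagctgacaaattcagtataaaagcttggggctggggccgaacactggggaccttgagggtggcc
Nr4a1 promoter, chr7:134259888-134260137, plus strand: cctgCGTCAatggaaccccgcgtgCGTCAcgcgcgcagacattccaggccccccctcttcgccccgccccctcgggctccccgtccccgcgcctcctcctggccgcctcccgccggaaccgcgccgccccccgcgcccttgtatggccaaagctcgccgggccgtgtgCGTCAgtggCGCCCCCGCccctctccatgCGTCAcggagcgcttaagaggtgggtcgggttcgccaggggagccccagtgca
The Egr1 sequence held a pair of CArG boxes, whose first bases lay 105 and 83 bases before the start, and TGACG matches at 135 and 66 bases. Nr4a1 held 4 TGACG matches and 1 Egr site, and Junb held 1 TGACG match.

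The RefSeq promoter table listed 6 of the 10 genes, namely Junb, Fosl2, Egr1, Egr4, Nr4a1 and Nptx2. TGACG occurred in 5 of these 6, against 18.2% of all 33469 promoters searched over the same 250 bases on both strands. GCGGGGGCG occurred in 3 of 6, against 2.45% of all promoters. The CArG box occurred in 1 of 6, Egr1, against 1.5% of all. The full element TGACGTCA, which contains TGACG on both strands, and the Egr site GCGTGGGCG occurred in 0 of 6, against 1.59% and 0.478% of all promoters. A match describes these letters only, and the promoters were not matched on base composition.

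The deposited value is an expression index on a linear scale, computed by the authors with the program dChip. It compares arrays within a probe set, and a difference in index between probe sets is not read as a difference in transcript. The most abundant probe set of a gene is the one with the highest mean index. Sums of markers add the indices of different probe sets. The median index of an array lay between 2208 and 2310. The cocaine PFC array had 226 of the 593 values listed as exactly 0 and the lowest median correlation with the other arrays, r = 0.912, and no immediate early probe set was listed at 0. The labels were checked against marker genes. Of 7 tested genes of striatal projection neurons, 7 were higher in the CPU, 4 in the NAc and 1 in the AMY than in the other regions. Markers of excitatory projection neurons were higher in the PFC (4 of 4 tested) and in the AMY (2 of 4). In the CPU 1 of these 4 was higher and 3 were lower. Of all tested probe sets 4.09% were called in either direction in the CPU, 0.535% in the NAc and 5.06% in the PFC. The share was 0.612% in the AMY and 11.1% in the VTA. Of 6 tested dopamine neuron genes, 2 were higher in the VTA, Th and Aldh1a1, with log2 differences of 1.35 and 1.31. Drd2, a dopamine receptor also made by striatal neurons, was lower there (-0.56) and higher in the CPU (1.07). Slc6a3, the dopamine transporter, was not past the threshold in the VTA (0.24, limma adjusted p = 0.341), nor were Ddc and Ret.

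On the saline arrays most immediate early probe sets differed little between regions, as did probe sets of the whole array, and 2 Egr1 probe sets differed most. The highest saline index of a probe set was a median of 1.34 times its lowest over the 21 tested probe sets, and 1.27 times over 5130 probe sets with a value on all saline arrays. The ratio passed 2 for 2 of the 21, both of Egr1, at 4.38 and 3.89, against 5.95% of all. The other Egr1 probe sets, U75398_s_at and rc_AI176662_s_at, had ratios of 1.56 and 1.26. The AMY gave the highest saline value for 15 of the 21, against 34.9% of all probe sets, the PFC for 5 and the NAc for 1. The AMY count was 10 with arrays scaled to their medians and 11 after quantile normalization. The VTA gave the lowest saline value for 15 of the 21, against 22.3% of all. The order was another on the cocaine arrays, where the PFC was highest for 14 of 21, against 32.6% of all, the AMY for 2, and the VTA lowest for 8, against 15.9% of all.

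**Figure D1:**
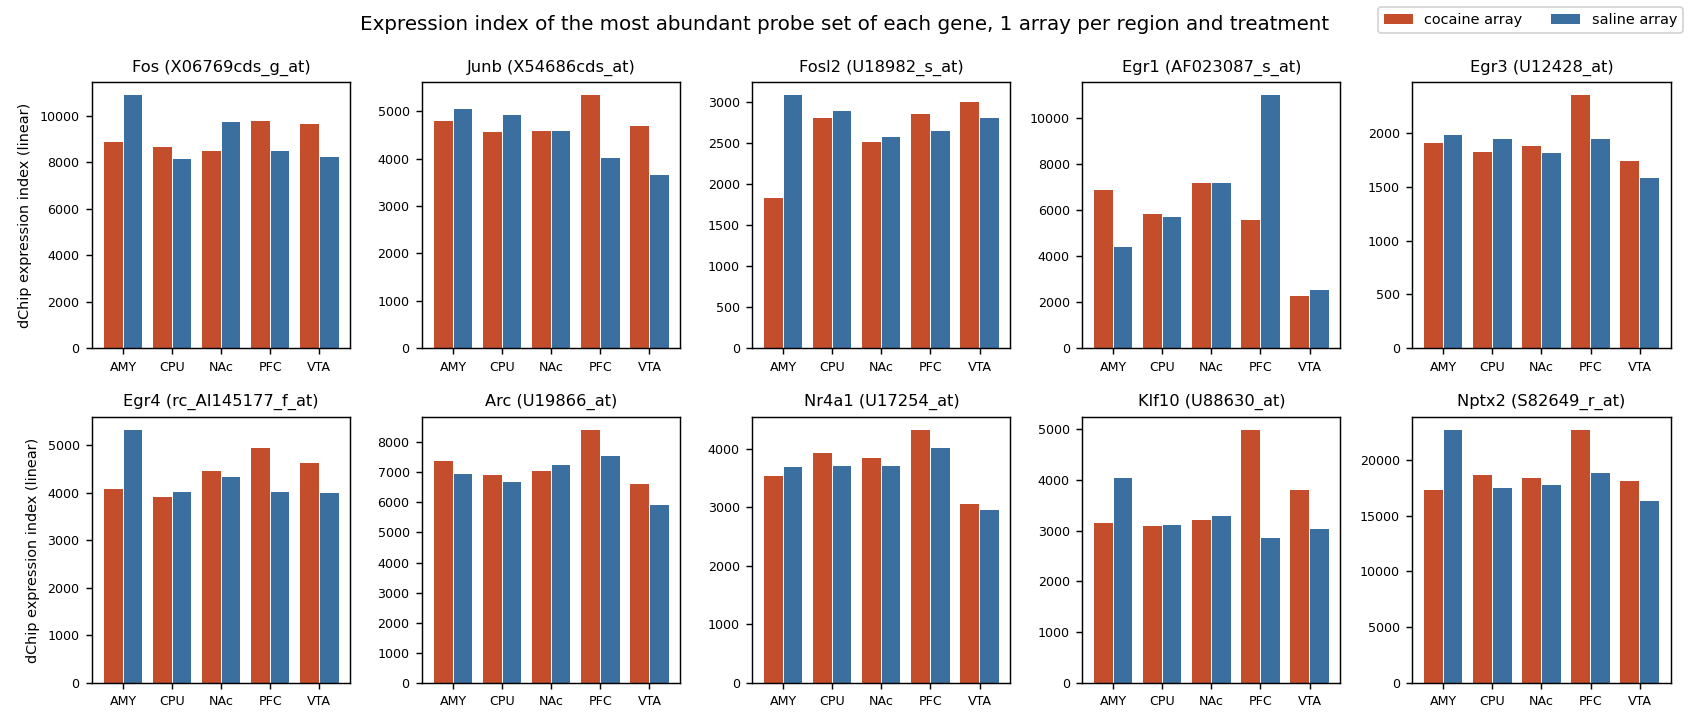
dChip expression index (linear, vertical axis from 0) of the most abundant probe set of each gene in the AMY, CPU, NAc, PFC and VTA; each bar is 1 array, cocaine left and saline right, with no error bar because there is 1 array per group. Egr1 shows the widest span, with 2246 on the cocaine and 2513 on the saline array of the VTA and 11016 on the saline array of the PFC.

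Egr1, a zinc finger factor with high resting expression in forebrain neurons, was lower in the VTA than elsewhere. On the cocaine arrays its most abundant probe set, AF023087_s_at, had an index of 6882 in the AMY, 5833 in the CPU, 7186 in the NAc, 5565 in the PFC and 2246 in the VTA. On the saline arrays it had 4401 in the AMY, 5718 in the CPU, 7176 in the NAc, 11016 in the PFC and 2513 in the VTA. Both VTA arrays lay below all 8 others.

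Set against the mean of the other 4 regions, that probe set was 2.74-fold lower in the VTA (log2 difference -1.45 ± 0.24 SE, limma adjusted p = 0.00883). The region means of the index were 2380 ± 189 in the VTA, 5641 ± 1754 in the AMY, 5776 ± 81.2 in the CPU, 7181 ± 7.34 in the NAc and 8291 ± 3854 in the PFC (SD, n = 2, 1 cocaine and 1 saline array). M18416_at, another Egr1 probe set, had 934 on the cocaine and 1124 on the saline array of the VTA, and between 2018 and 4367 on the other 8 arrays. It was 2.53-fold lower in the VTA (-1.34 ± 0.23 SE, limma adjusted p = 0.00978), with the value of 934 raised to the floor of 1028 before log2. The Egr1 probe sets rc_AI176662_s_at and U75398_s_at did not pass, at -0.21 (adjusted p = 0.341) and -0.08 (adjusted p = 0.947). In bulk tissue, fewer cells that express a gene and less RNA per cell cannot be told apart.

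Junb and Nr4a1 were also lower in the VTA on 1 probe set each, by less. Junb rc_AA891041_at had 3351 in the AMY, 3694 in the CPU, 3674 in the NAc, 2701 in the PFC and 2435 in the VTA on the cocaine arrays. On the saline arrays it had 3206 in the AMY, 2868 in the CPU, 3715 in the NAc, 2729 in the PFC and 2336 in the VTA. The VTA values were the lowest under both treatments, and the difference was 1.35-fold (log2 -0.43 ± 0.09 SE, limma adjusted p = 0.0240). The more abundant Junb probe set, X54686cds_at, did not pass (-0.19 ± 0.12 SE, adjusted p = 0.481).

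Nr4a1 U17254_at had 3539 in the AMY, 3922 in the CPU, 3841 in the NAc, 4325 in the PFC and 3063 in the VTA on the cocaine arrays. Its saline index was 3694 in the AMY, 3699 in the CPU, 3707 in the NAc, 4013 in the PFC and 2958 in the VTA. Both VTA arrays lay below the other 8, and the VTA was 1.27-fold lower (log2 -0.35 ± 0.07 SE, limma adjusted p = 0.0209). Its other probe set, U17254_g_at, differed by -0.26 ± 0.09 SE (adjusted p = 0.121).

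In all, 4 of the 21 probe sets were called in the VTA, each of them lower, where 3.23% of 5232 tested probe sets were called lower and 11.1% were called in either direction. The difference was negative for 18 of the 21, with a median of -0.14, against a median of 0.02 over all tested probe sets. The 4 calls rest on few arrays: 0 were left without the cocaine VTA array or without the saline VTA array. Without the cocaine NAc, saline NAc or cocaine CPU array 2 were left, those of Egr1. With no filter on dim probe sets only the Nr4a1 call was left (adjusted p = 0.0213), and Egr1 (0.0796 and 0.0838) and Junb (0.0758) no longer passed. Markers of several cell types moved with the same contrast. Oligodendrocyte markers were higher in the VTA (4 of 5 tested), and markers of striatal projection neurons (6 of 7), excitatory neurons (3 of 4) and interneurons (1 of 5) were lower. Among markers of astrocytes 1 of 4 was higher, and of choroid plexus and meninges 1 of 6. Markers of microglia and of endothelial, mural and blood cells gave 0 calls. The 4 excitatory genes summed to 24638 and 19497 on the cocaine and saline VTA arrays, against 38059 to 99625 on the other arrays. The 5 oligodendrocyte genes summed to 115159 and 99690 on the cocaine and saline VTA arrays, against 64407 to 118241 on the others. The part of these cell types in the result was not tested.

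**Figure D2:**
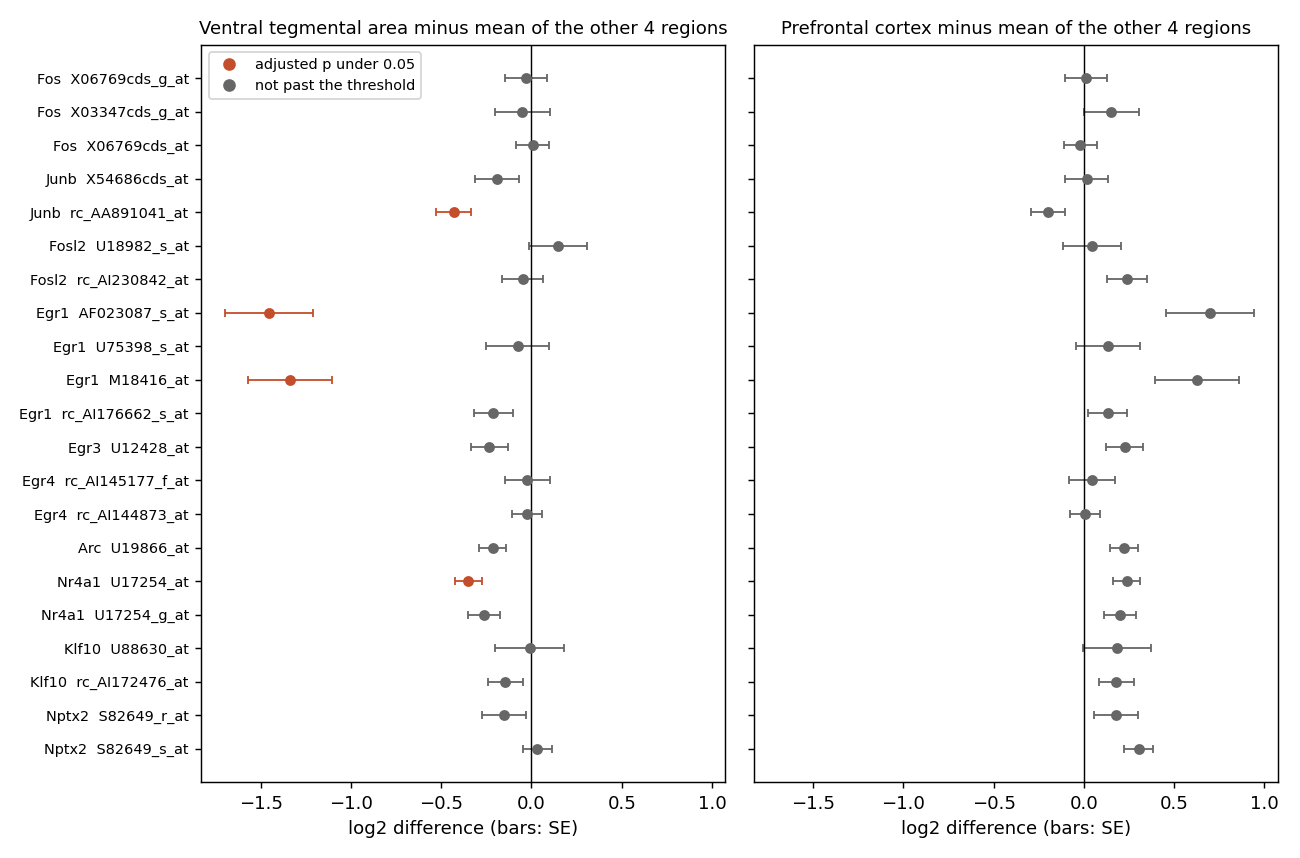
Log2 difference (horizontal axis) of the VTA, left, and of the PFC, right, from the mean of the other 4 regions for the 21 tested probe sets; points are limma estimates, bars their SE, orange where the adjusted p passed the threshold of 0.05. The 4 orange points are Egr1 AF023087_s_at and M18416_at, Junb rc_AA891041_at and Nr4a1 U17254_at in the VTA.

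Arc, which marks recently active neurons, varied less between regions. On the cocaine arrays U19866_at had 7377 in the AMY, 6925 in the CPU, 7050 in the NAc, 8417 in the PFC and 6607 in the VTA. Its saline index was 6957 in the AMY, 6674 in the CPU, 7255 in the NAc, 7550 in the PFC and 5916 in the VTA. The PFC was highest and the VTA lowest under both treatments, but neither difference passed, at 0.22 ± 0.08 SE in the PFC (limma adjusted p = 0.168) and -0.22 ± 0.08 SE in the VTA (adjusted p = 0.134).

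Nptx2 was lower in the CPU on 1 of its 2 probe sets. On the cocaine arrays S82649_s_at had 2851 in the AMY, 1701 in the CPU, 2180 in the NAc, 2759 in the PFC and 2247 in the VTA. On the saline arrays it had 3004 in the AMY, 1789 in the CPU, 2485 in the NAc, 2993 in the PFC and 2724 in the VTA. Both CPU arrays lay below the other 8, and the CPU was 1.51-fold lower (log2 -0.60 ± 0.08 SE, limma adjusted p = 0.00748).

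This was the only call in the CPU, 1 of 21, where 2.35% of tested probe sets were lower and 4.09% were called in either direction. It was lost without the cocaine CPU array (adjusted p = 0.144) and without the saline CPU array (adjusted p = 0.261). S82649_r_at, made from the same sequence entry, differed by -0.07 ± 0.12 SE (adjusted p = 0.868).

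No immediate early probe set was called in the AMY, NAc or PFC by limma, where 0.612%, 0.535% and 5.06% of all tested probe sets were called. At an unadjusted p under 0.05, 1 of 21 passed in the AMY, 1 in the NAc and 5 in the PFC, where 465, 274 and 885 of all 5232 probe sets did. In the PFC 19 of the 21 differences were positive, with a median of 0.18 against 0.00 for all probe sets, and the smallest adjusted p was 0.0860, for Nptx2 S82649_s_at. Some probe sets were called in the AMY or PFC when a single AMY or PFC array was left out. The share of all probe sets called in those smaller fits was not counted.

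Between single regions there were 10 calls over the 10 pairs. The PFC over the VTA gave 3, all higher (11.4% of all probe sets called), and the NAc over the VTA gave 3, all higher (4.26%). The CPU over the VTA gave 2, 1 higher and 1 lower (7.59%). The AMY over the CPU gave 1, higher (3.36%), and the CPU over the PFC gave 1, lower (4.47%). Both were Nptx2 S82649_s_at, with log2 differences of 0.75 and -0.72. The lower call of the CPU over the VTA was the same probe set (-0.50). The other pairs gave 0: the AMY over the NAc (0.497%), over the PFC (0.172%) and over the VTA (6.29%), the CPU over the NAc (0.765%) and the NAc over the PFC (1.59%). The Egr1 probe set AF023087_s_at was 3.30-fold higher in the PFC, 3.02-fold higher in the NAc and 2.43-fold higher in the CPU than in the VTA, with limma adjusted p-values of 0.0112, 0.0287 and 0.0441. When the regions of each probe set were put in order of level, 0 of 84 differences between neighbours passed the threshold. The calls became fewer when a single VTA, CPU or NAc array was left out, and more when a single AMY array was left out. How many of all probe sets were called in those smaller fits was not counted.

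Cocaine-treated and saline-treated tissue were compared across the 5 regions with region as a block. None of the 21 probe sets was called by limma, 0 had an unadjusted p under 0.05, and the smallest adjusted p was 0.9999. Among all 5244 tested probe sets 0% were called and 69 had an unadjusted p under 0.05. The log2 difference was positive for 16 of 21, with a median of 0.05, against 45.3% positive and a median of -0.01 over all. It ran between -0.15 ± 0.07 SE for Nptx2 S82649_s_at, which was lower on the cocaine array in 5 of 5 regions, and 0.14 ± 0.15 SE for Klf10 U88630_at.

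Fos, the AP-1 subunit most used as an activity marker, differed by 0.01 ± 0.09 SE on its most abundant probe set, X06769cds_g_at. Junb X54686cds_at differed by 0.12 ± 0.10 SE and Fosl2 U18982_s_at by -0.13 ± 0.13 SE. Egr1 AF023087_s_at differed by -0.09 ± 0.19 SE, Egr3 by 0.06 ± 0.08 SE and Egr4 rc_AI145177_f_at by 0.03 ± 0.10 SE. None of these passed the test. Arc differed by 0.08 ± 0.06 SE, positive in 4 of 5 regions, and Nr4a1 U17254_at by 0.05 ± 0.06 SE, also positive in 4 of 5.

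The difference of the cocaine effect between the striatal regions, CPU and NAc, and the other 3 was also tested. None of 21 was called by limma, 0 had an unadjusted p under 0.05, and 0% of 5238 probe sets were called. Without the AMY pair 1 was called, Egr1 U75398_s_at (-0.51 ± 0.12 SE, limma adjusted p = 0.0450). The share of all probe sets called in that smaller fit was not counted. The ratios of U75398_s_at had the opposite sign to those of Egr1 AF023087_s_at in every region.

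Within a region 1 cocaine array stood against 1 saline array, so the values are ratios with no test. A fold of 1.5 was passed by tested probe sets in the AMY and PFC. In the AMY, Egr1 AF023087_s_at was 1.56-fold higher and Fosl2 U18982_s_at 1.69-fold lower on the cocaine array, with an index of 1827 on the cocaine array and 3085 on the saline array for Fosl2. These are 2 of 21, against 8.89% of all probe sets. In the PFC, Klf10 U88630_at was 1.74-fold higher, with 4992 on the cocaine array and 2865 on the saline array. Egr1 was 1.98-fold lower there on AF023087_s_at and 1.87-fold lower on M18416_at. These are 3 of 21, against 4.92% of all. In the CPU, NAc and VTA 0 of 21 passed, against 0.153%, 0.229% and 1.65% of all.

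**Figure D3:**
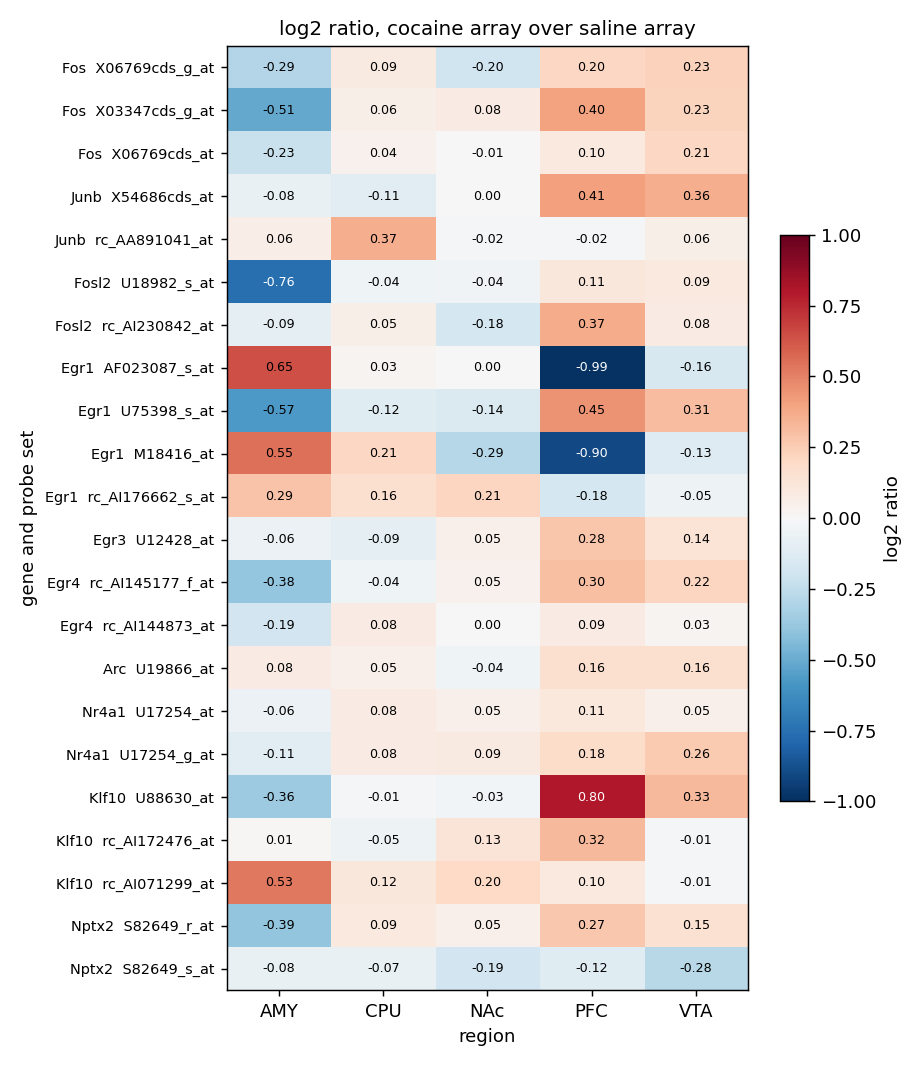
Log2 ratio of the cocaine over the saline array for each of the 22 probe sets (rows) in each region (columns), coloured blue below 0 and red above 0, each cell 1 array against 1 array. The strongest cells are Egr1 AF023087_s_at and M18416_at in the PFC, at -0.99 and -0.90, and Klf10 U88630_at in the PFC, at 0.80.

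Over the 7 probe sets of the AP-1 genes Fos, Junb and Fosl2 the log2 ratio lay between -0.11 and 0.37 in the CPU and between -0.20 and 0.08 in the NAc. In the VTA all 7 were above 0, between 0.06 and 0.36, in a region where 57.5% of all probe sets were above 0. In the AMY 6 of the 7 were below 0, with a range of -0.76 to 0.06, and in the PFC 6 of the 7 were above 0, with a range of -0.02 to 0.41. Junb X54686cds_at had 4692 on the cocaine array and 3646 on the saline array of the VTA.

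Over all 21 tested probe sets the median log2 ratio was -0.09 in the AMY, 0.05 in the CPU, 0.00 in the NAc, 0.18 in the PFC and 0.14 in the VTA. The medians over all tested probe sets were -0.04, -0.03, -0.03, 0.01 and 0.03 in the same order of regions. Positive ratios numbered 6 of 21 in the AMY, 13 in the CPU, 11 in the NAc, 16 in the PFC and 16 in the VTA. Over all tested probe sets 45.0%, 40.8%, 40.6%, 51.9% and 57.5% were positive in the same order of regions.

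The ratios of the AMY and the PFC ran opposite to each other across the whole array. Over 5005 probe sets, which share only the 4 arrays of these regions, the log2 ratios correlated with r = -0.625, and 73.0% had opposite signs. Of the 21 immediate early probe sets 18 had opposite signs, 14 of them lower on the cocaine array in the AMY and higher in the PFC, against 39.8% of all. The other 4 were higher in the AMY and lower in the PFC, against 33.2% of all, and 3 of these were Egr1 probe sets. The ratios of the AMY and VTA also ran opposite (r = -0.588 over 5059), and those of the PFC and VTA ran together (r = 0.575 over 4973). With 1 array per group, an array and its treatment cannot be told apart.

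**Figure D4:**
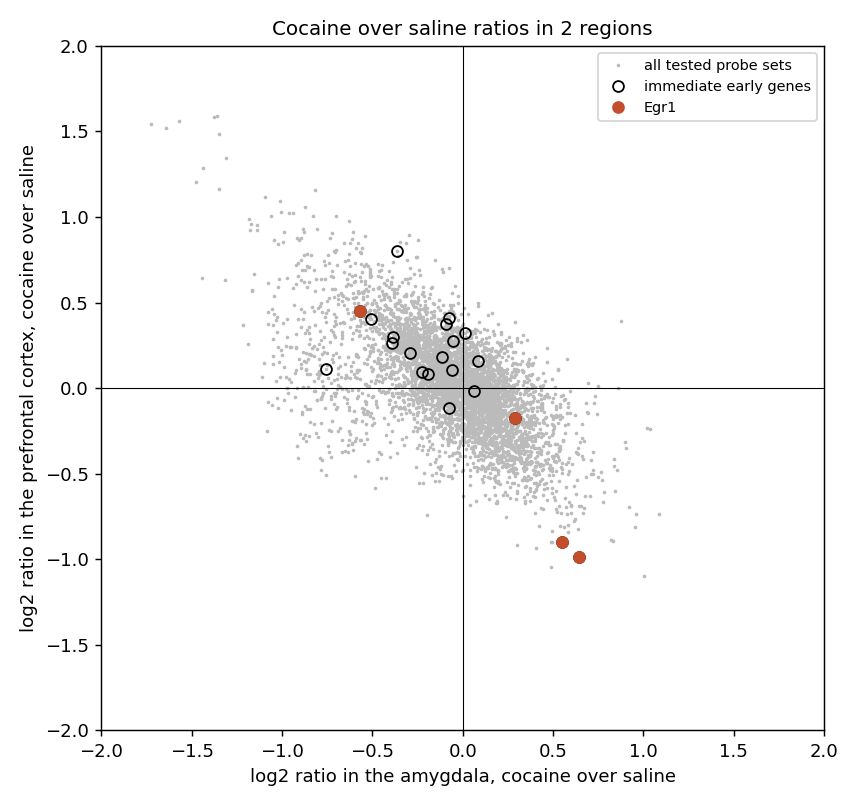
Log2 ratio of cocaine over saline in the AMY (horizontal axis) and in the PFC (vertical axis); grey points are all 5005 tested probe sets with both ratios, open circles the immediate early genes and filled orange circles the 4 Egr1 probe sets. Points run along the falling diagonal, and Egr1 AF023087_s_at and M18416_at lie at its lower right end while U75398_s_at lies in the upper left.

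The probe sets of a gene often gave different signs, at a share close to that of other genes on the array. Over 15 pairs of tested probe sets in 8 genes, the log2 ratios had the same sign in 44 of 75 comparisons, 58.7%, against 63.3% over 1222 pairs of 749 genes. Egr1 U75398_s_at shared its sign with AF023087_s_at, M18416_at and rc_AI176662_s_at in 0, 1 and 0 of 5 regions. The remaining pairs of tested probe sets shared theirs in 1 to 5 of 5. Pairs made from the same sequence entry shared their sign in 11 of 15 comparisons (68.1% over all such pairs), and pairs from different entries in 33 of 60 (61.4% over all). Probe sets of a gene share arrays and RNA and are not replicates.

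Egr1 shows the disagreement most plainly. AF023087_s_at and M18416_at followed each other over the 10 arrays with r = 0.990, and AF023087_s_at and rc_AI176662_s_at with r = 0.817. U75398_s_at had 3387 in the AMY, 3317 in the CPU, 3406 in the NAc, 4725 in the PFC and 4006 in the VTA on the cocaine arrays. On the saline arrays it had 5032 in the AMY, 3609 in the CPU, 3762 in the NAc, 3455 in the PFC and 3229 in the VTA. Its ratios had the opposite sign to those of AF023087_s_at in 5 of 5 regions, and r over the arrays was -0.177. The annotation gives U75398_s_at to Egr1 through another accession than the one in its name, and which transcript it reports was not tested. The same is true of the annotation of Fos X03347cds_g_at, which shared its sign with each other Fos probe set in 4 of 5 regions.

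**Figure D5:**
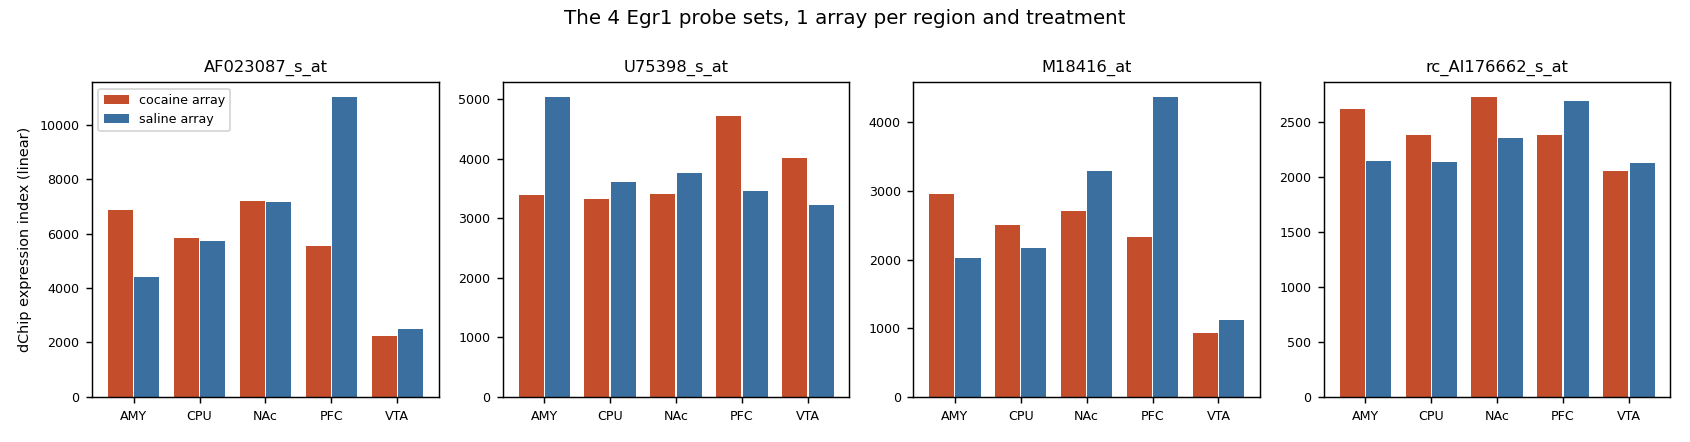
dChip expression index (linear, vertical axis from 0) of the 4 Egr1 probe sets in the AMY, CPU, NAc, PFC and VTA; each bar is 1 array, cocaine left and saline right, with no error bar. AF023087_s_at and M18416_at are highest on the saline PFC array and lowest in the VTA, while U75398_s_at is highest on the saline AMY array.

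The probe sets of Fos, Nr4a1 and Egr4 shared their sign in at least 4 of 5 regions. The Fos pair X06769cds_at and X06769cds_g_at shared its sign in 5 of 5 regions (r = 0.893 over 10 arrays), as did the Nr4a1 pair (r = 0.888). Fos X03347cds_g_at shared its sign with each of the other Fos probe sets in 4 of 5 regions, with r of 0.708 and 0.643. The Egr4 pair did so in 4 of 5 (r = 0.870), and the Fosl2 pair in 4 of 5 with a lower r of 0.256. The pairs of Junb and Nptx2 shared their sign in 1 of 5 regions, and Klf10 U88630_at and rc_AI172476_at in 2 of 5. When a gene was given the mean of its tested probe sets, 0 genes passed a fold of 1.5 in the AMY and 0 in the PFC, against 2 and 2 on the most abundant probe set alone.

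Klf10 rc_AI071299_at, the probe set too dim to be tested, had a mean index of 1152. It had 1483 on the cocaine array and 987 on the saline array of the AMY, and 915 on the cocaine and 1035 on the saline array of the VTA. The values of 987 and 915 lie below the floor of 1028.

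The probe sets most like the mean of the 10 genes over the 10 arrays, among 4031 compared, were those of Tmod1, which caps actin filaments (r = 0.956), Prl4a1, a placental prolactin family gene (r = 0.946), Mcm7, a subunit of the replication helicase (r = 0.941), Flt1, a VEGF receptor (r = 0.938), and Mark2, a microtubule affinity kinase (r = 0.937). Tmod1 had its highest index, 2903, on the cocaine PFC array and 2569 on the saline AMY array. Those most like Egr1 AF023087_s_at were Cyfip2, a subunit of the WAVE actin complex (r = 0.956), Prkcb, a protein kinase C (r = 0.948), and Cx3cl1, a neuronal chemokine (r = 0.942). Those most like Arc were Tnfsf13, a TNF family ligand (r = 0.899), Bend3, a repressor (r = 0.895), and Mgll, which breaks down an endocannabinoid (r = 0.891). These are descriptions over arrays that share region and treatment, and the spread of r over the probe sets compared was not examined. Ratios in the AMY and PFC ran opposite across the whole array, as described above. The part of that array-wide pattern in these correlations was not tested.

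Other activity-regulated genes were taken from a list of 54, of which 36 were on the array and 25 were tested. Each gene was represented by its most abundant probe set with a value on all arrays. Which Homer1 transcript that probe set reports was not tested. None of the 25 was called for cocaine over saline across regions, and the median log2 difference was 0.01. The largest were Homer1, a postsynaptic scaffold, at -0.19 ± 0.10 SE, Dusp6, a phosphatase of ERK, at -0.16 ± 0.13 SE, and Nptx1, a pentraxin, at 0.14 ± 0.06 SE. Ptgs2 (-0.13 ± 0.16 SE), Nrn1 (0.12 ± 0.10 SE), Myc (-0.10 ± 0.18 SE), Ier3 (-0.09 ± 0.06 SE) and Klf6 (-0.09 ± 0.14 SE) followed.

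A few of these genes differed between regions. Homer1 was lower in the VTA, with a log2 difference of -1.31 ± 0.13 SE (limma adjusted p = 0.000739) and higher in the CPU by 0.83 ± 0.13 SE (adjusted p = 0.0110). Nrn1, a neurotrophic surface protein that also stands among the excitatory neuron markers, was higher in the PFC by 1.39 ± 0.13 SE (adjusted p = 0.00142), lower in the CPU (-1.15 ± 0.13 SE, adjusted p = 0.00237) and lower in the NAc (-0.83 ± 0.13 SE, adjusted p = 0.0383). Klf9, a Krüppel-like factor, was lower in the VTA (-0.66 ± 0.13 SE, adjusted p = 0.0177), and Syt4, a vesicle protein, was higher there (0.57 ± 0.12 SE, adjusted p = 0.0184). These make 2 of 25 lower and 1 of 25 higher in the VTA, and 1 lower and 1 higher in the CPU, where 11.1% and 4.09% of all probe sets were called in either direction. In the AMY 0 of 25 passed. Within the AMY, 5 of 25 were at least 1.5-fold lower on the cocaine array, against 7.47% of all probe sets.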

How the data were processed

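RNA of 10 rat brain samples, 5 regions with 1 cocaine-treated and 1 saline-treated sample each, was measured on single-colour oligonucleotide arrays. Each value deposited by the authors is a linear intensity, the dChip expression index per the labels. The version, model and array scaling of dChip were not given in the sources used here. No further normalization was applied.

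From 8799 probe sets, 59 controls were left out. Of the other 8740, the platform annotation gave 1 symbol to 7006, several to 308 and none to 1426. The 593 values listed as 0 were treated as having no value. A floor at the 20th percentile of the non-zero values (an index of 1028) was set, and log2 was then taken. Tests covered the brightest 60% of probe sets by mean index (5244) and used limma 3.58.1 under R 4.3.3, eBayes with an intensity trend, and Benjamini-Hochberg adjustment over all probe sets of a comparison, at a threshold of 0.05. Cocaine over saline was fitted with region as a block (4 residual degrees of freedom), regions with treatment as a term (4), and the striatal interaction with 3. Within a region only ratios were taken. The code was tested on simulated data.

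Since no label says that samples are of separate animals, p-values reflect only how these samples spread, which may be technical, and the number of arrays limits the precision. The genes and lists were chosen with earlier results of these data known. All probe sets of the 10 genes are described. Also named are the 5 probe sets of other genes most correlated over the 10 arrays with the mean of the 10 genes, the 3 most like Arc and the 3 most like Egr1, up to 8 of the other activity-regulated genes with the largest change, and markers that bear on a result. Alternatives were other floors, filters, scalings and treatments of zeros, and leaving out arrays. Promoter sequences are from RefSeq, build GRCr8.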

Additional observations from a re-analysis of the deposited data

Results flagged for a closer look

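The 5 regional cocaine over saline log2 ratios of each of the 22 probe sets were examined for 1 region far from the others. The measure was the gap to the nearest region divided by the whole range, with a critical value of 0.71. Chance passes that value in about 1 in 20 sets of ratios, and 2 of 22 passed it.

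Junb rc_AA891041_at had a log2 ratio of 0.37 in the CPU, with a gap ratio of 0.790, while its other ratios lay between -0.02 and 0.06. Fosl2 U18982_s_at had a log2 ratio of -0.76 in the AMY, with a gap ratio of 0.821, while its other ratios lay between -0.04 and 0.11. The other Junb probe set had a ratio of -0.11 in the CPU, and the other Fosl2 probe set -0.09 in the AMY.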

How the results depend on the processing

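Of 375 alternative values, 316 kept their direction and their side of the threshold or, for counts, moved by at most 1.5-fold. Another 28 moved, 20 kept their direction but no longer passed, and 11 changed sign. The 316 include cocaine over saline tests far from the threshold and counts of 0 that stayed at 0. Such values could hardly change, so the total is no measure of how stable the calls are. No call was made for cocaine over saline across regions under any alternative run. With zeros raised to the floor the calls between single regions numbered 6, and with no filter on dim probe sets 5, against 10. With no filter 1 call was left in the VTA against 4, that of Nr4a1, with 8740 probe sets tested, 1226 of them at the floor on all 10 arrays. On cocaine arrays 2 probe sets were highest in the AMY and 8 lowest in the VTA, against 15 and 15 on saline arrays. The AMY count on saline arrays was 10 with median scaling and 11 after quantile normalization. With the mean of all tested probe sets of a gene, 0 genes passed a fold of 1.5 in the AMY and 0 in the PFC, against 2 and 2. Without the saline AMY and cocaine PFC arrays, calls numbered 1 in the AMY and 2 in the PFC, against 0 and 0. These arrays were chosen after seeing the data, from values of the same probe sets, so those calls are no evidence of a difference.

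Leaving out 1 array at a time gave 0 to 1 calls in the AMY, 0 to 1 in the CPU, 0 to 3 in the PFC, 0 to 5 in the VTA and 2 to 20 between single regions, where a region left with 1 array is assumed to vary like the others. Leaving out 1 regional pair gave 0 to 1 calls for the striatal interaction. For none of these smaller fits was the share of all probe sets called counted. The largest pairwise count, 20, came without the saline AMY array and the smallest, 2, without either VTA array. The cocaine over saline log2 differences that changed sign without 1 pair ranged between -0.051 and 0.081 for Fos X06769cds_g_at, -0.19 and 0.031 for Fosl2 U18982_s_at, -0.28 and 0.13 for Egr1 AF023087_s_at, -0.041 and 0.13 for Egr4 rc_AI145177_f_at, -0.019 and 0.27 for Klf10 U88630_at, and -0.024 and 0.14 for Nptx2 S82649_r_at. With arrays scaled to their medians Fos X06769cds_g_at gave -0.00014, and without the AMY and PFC pairs, chosen after seeing the data, Fosl2 U18982_s_at gave 0.0044. The causes were not tested. With 1 array per group, signal over background is not known here beyond the floor.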

Other observations

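Genes that carry signals to immediate early promoters were taken from a list of 20, of which 8 were on the array and 7 were tested: Camk4, Creb1, Map2k1, Map2k2, Mef2d, Prkaca and Prkacb. None was called by limma for cocaine over saline across regions, and the median log2 difference was -0.07. Prkaca, a catalytic subunit of protein kinase A, was higher in the VTA (0.93 ± 0.18 SE, limma adjusted p = 0.0157), and Camk4, a calcium and calmodulin dependent kinase, was lower there (-0.54 ± 0.11 SE, adjusted p = 0.0153). Map2k1, the kinase that activates ERK, was lower in the PFC (-0.50 ± 0.09 SE, adjusted p = 0.0256). Creb1, which binds the cyclic AMP response element, did not pass in any region against the others. These calls make 1 of 7 higher and 1 of 7 lower in the VTA, and 1 of 7 lower in the PFC. Among all tested probe sets 11.1% and 5.06% were called there in either direction.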
